A study of Homo sapiens with 22 samples.

Results

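The transcriptional coactivators YAP1 and WWTR1 (also called TAZ), the TEAD factors they bind, and a set of their target and regulator genes were followed by RNA-seq in RPTEC, a human cell line of renal proximal tubule epithelium immortalized with hTERT. The 10 members were chosen by name as factors and targets of YAP-TEAD signaling, and 9 of them were found among the 36859 genes of the table: YAP1, WWTR1, TEAD1, TEAD4, CCN1, ANKRD1, AMOTL1, AMOTL2 and LATS2. CCN2 was not analysed here. Of the 9, 8 reached 10 normalized counts in 2 or more libraries and were tested. LATS2 passed 10 in 1 library only and is given by its values alone.

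The study asked how loss of SETD2, the methyltransferase that places H3K36me3, alters gene expression in these cells, and whether this resembles the response to TGF-β. The 22 libraries formed 11 groups of 2. In medium with 2% serum these were WT cells (time 0), WT cells after 72 h in 10 ng/ml TGF-β, the SETD2 knockout clones KO1 and KO2, and cells labelled KO2 rescue. The others were kept in 10% serum: the clones Rescue1 and Rescue2, and WT cells that had received lentivirus for eGFP as the vector control, SOX2, OCT2 or PRRX1. KO1 and KO2 are each 1 clone selected for a CRISPR-induced frameshift, and the rescue clones were picked as single colonies after SETD2 KO cells were transduced with FLAG-tagged SETD2 and selected with blasticidin. The sources used here do not give which KO clone the rescue clones came from. The eGFP, SOX2, OCT2 and PRRX1 lines are bulk populations selected with puromycin. Nothing in the labels says that the 2 libraries of a group came from separate cultures, so p-values measure only the spread between these libraries, which may be technical. TGF-β treatment also differs from its control in time (72 h against 0), and the rescue clones differ from the KO clones in serum, transduction and selection, and these cannot be told apart from the treatment and the genotype. The eGFP cells likewise differ from WT cells in serum, transduction and selection, which cannot be told apart.

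YAP1 and WWTR1 carry no DNA-binding domain and act in the nucleus by binding TEAD factors, which recognize the sequence GGAATG. The Hippo kinases hold them back: STK3 and STK4 with SAV1 activate LATS1 and LATS2, and these phosphorylate YAP1 and WWTR1, which are then kept in the cytoplasm or degraded. Cell density, polarity, stretch and the actin cytoskeleton feed into this control, so the mRNA of YAP1 or WWTR1 is not a measure of their activity, and transcripts of targets such as CCN1, CCN2 and ANKRD1 are commonly used as readouts. Several targets, LATS2 and AMOTL2 among them, encode inhibitors of the coactivators. In the kidney the pathway takes part in nephron formation, and mice without Wwtr1 develop kidney cysts.

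The 250 bases before the annotated start were read from RefSeq promoters (GRCh38.p14), in which 6 of the 9 members had an entry, and GGAATG was searched on both strands (its reverse is CATTCC). It was present in 4175 of 35116 promoters of this length (11.9%). ANKRD1 is shown because it had the largest changes of the members, and YAP1 because its window holds the same letters while it was called in no comparison. The motif is in capitals, and each sequence is written 5′ to 3′ on the strand of the gene, with ANKRD1 at chr10:90921088-90921337 (minus strand) and YAP1 at chr11:102110197-102110446 (plus strand).
ANKRD1: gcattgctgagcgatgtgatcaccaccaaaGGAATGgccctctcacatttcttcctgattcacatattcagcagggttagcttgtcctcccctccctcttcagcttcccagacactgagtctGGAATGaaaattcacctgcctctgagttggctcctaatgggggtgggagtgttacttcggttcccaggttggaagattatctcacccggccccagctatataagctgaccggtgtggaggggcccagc
YAP1: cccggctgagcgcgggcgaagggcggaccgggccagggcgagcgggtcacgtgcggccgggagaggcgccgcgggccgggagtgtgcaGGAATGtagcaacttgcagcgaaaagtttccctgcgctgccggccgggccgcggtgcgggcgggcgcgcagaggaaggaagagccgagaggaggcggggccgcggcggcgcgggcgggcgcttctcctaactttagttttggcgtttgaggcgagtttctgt
Counted back from the base before the start (-1), the motif began at -220 and -128 in ANKRD1 and at -162 in YAP1. Of the 2 starts listed for AMOTL2, 1 held the reverse letters, at -69. Neither of the 2 windows of WWTR1 held the motif, nor did those of AMOTL1 and LATS2. A match in these letters is a description of the window and not a measured binding site.

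Normalized counts per library added up to between 11674491 and 16758645, from about 7700000 to 18800000 reads as approximated from the spacing of low values. SETD2 itself was at 1852 and 2061 normalized counts in WT, 1046 and 1130 in KO1, 1050 and 1052 in KO2, and between 9764 and 10445 in the rescue clones. Those labelled KO2 rescue were at 834.5 and 819.6, a log2 change from KO2 of -0.35 (SE 0.07, adjusted p = 0.00382), so SETD2 mRNA goes against that label. The WT duplicates differed most: the median absolute log2 difference of genes with at least 1000 counts was 0.174 in WT and 0.0635 to 0.159 in the other groups. COL1A1, named after its values were seen, was at 11919 and 531.9 in the 2 WT libraries and at 46598 and 45007 with TGF-β. Several genes that every cell uses, likewise chosen after their values were seen, were low in the table, such as POLR2A, listed at 0 in 1 library and at most 116.6, and HPRT1, listed at 0 in 6 libraries. Levels are therefore not compared between genes, and a 0 is given only as the value listed.

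Each comparison below was tested by fitting limma once to all libraries on the scale of log2(normalized count + 1). The p-values were adjusted by Benjamini-Hochberg over 14585 genes. Calls required both an adjusted p below 0.05 and a log2 change beyond 1 in either direction. Where KO or rescue is written without a number, the mean of both clones was used, and changes are on this log2 scale unless given as folds of the group means. The rescue effect is the change of the rescue clones from eGFP cells, and the KO effect that of the KO clones from WT cells. Serum cancels in their difference only if it acts alike on the log scale in both. The eGFP line and the rescue clones also differ in the selection drug and in being bulk or clonal. The median change of all tested genes was between -0.03 and 0.00 in every comparison. Scaling all libraries to the same total would move it to -0.39 in KO1 against WT, -0.20 in KO2 and with TGF-β against WT, -0.21 in KO1 against KO2, 0.37 in rescue against KO and 0.40 in the difference between the rescue and KO effects.

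WWTR1 was lower in both SETD2 KO clones and YAP1 was not. WWTR1 had 6370 and 7063 normalized counts in WT, and it had 6935 and 7109 with TGF-β. KO1 was at 2528 and 2011, and KO2 at 4216 and 4107. Both KO clones lay below every other library, and KO1 lay below KO2. Against WT, WWTR1 was 2.96-fold lower in KO1 (log2 change -1.57, SE 0.09, adjusted p = 2.6e-09) and 1.61-fold lower in KO2 (-0.69, SE 0.09, adjusted p = 2.8e-05), the latter under the fold required for a call. Both clones together were lower than WT cells with TGF-β (-1.20, SE 0.08, adjusted p = 1.1e-08), whereas TGF-β itself moved WWTR1 by 0.07 (95% interval -0.12 to 0.26, adjusted p = 0.715), a sign that turned under the same-total scaling and without WT replicate 1. In bulk RNA fewer cells of a type and less RNA per cell cannot be told apart, here and below.

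In the rescue clones WWTR1 overlapped WT. Rescue1 was at 6583 and 6339, and Rescue2 at 6653 and 7425, all above the eGFP line at 4841 and 4588. The rescue clones were 2.1-fold above the KO clones (log2 change 1.14, SE 0.06, adjusted p = 1.6e-09) and 1.43-fold above eGFP cells in the same serum (0.52, SE 0.08, adjusted p = 1.3e-04). The eGFP cells were in turn lower than WT cells in low serum (-0.51, SE 0.09, adjusted p = 5.7e-04). The rescue effect minus the KO effect was 1.65 (SE 0.11, adjusted p = 1.9e-08), a value that also takes in the lower level of eGFP than of WT cells. Cells labelled KO2 rescue were at 6641 and 6387, above both KO2 libraries (0.65, SE 0.09, adjusted p = 2.0e-04), although SETD2 mRNA was not raised there.

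YAP1, the paralog of WWTR1, varied little, from 1383 to 2591 normalized counts over the 22 libraries. WT cells had 1632 and 1680, TGF-β-treated cells 2084 and 2150, KO1 cells 1792 and 2591, and KO2 cells 1888 and 1684. The 2 KO1 libraries disagreed with each other, and both KO2 libraries lay narrowly above WT. Its log2 change from WT was 0.35 with TGF-β (95% interval 0.09 to 0.62, adjusted p = 0.0673), 0.38 in KO1 (0.11 to 0.65, adjusted p = 0.025) and 0.11 in KO2 (-0.16 to 0.37, adjusted p = 0.588), the KO values turning negative under the same-total scaling. Rescue clones and KO clones differed by 0.08 (95% interval -0.11 to 0.27, adjusted p = 0.474), with the opposite sign without KO1 replicate 1. The interval of YAP1 in KO1 stays above 0 and so does not reach the change of WWTR1 there.

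**Figure D1:**
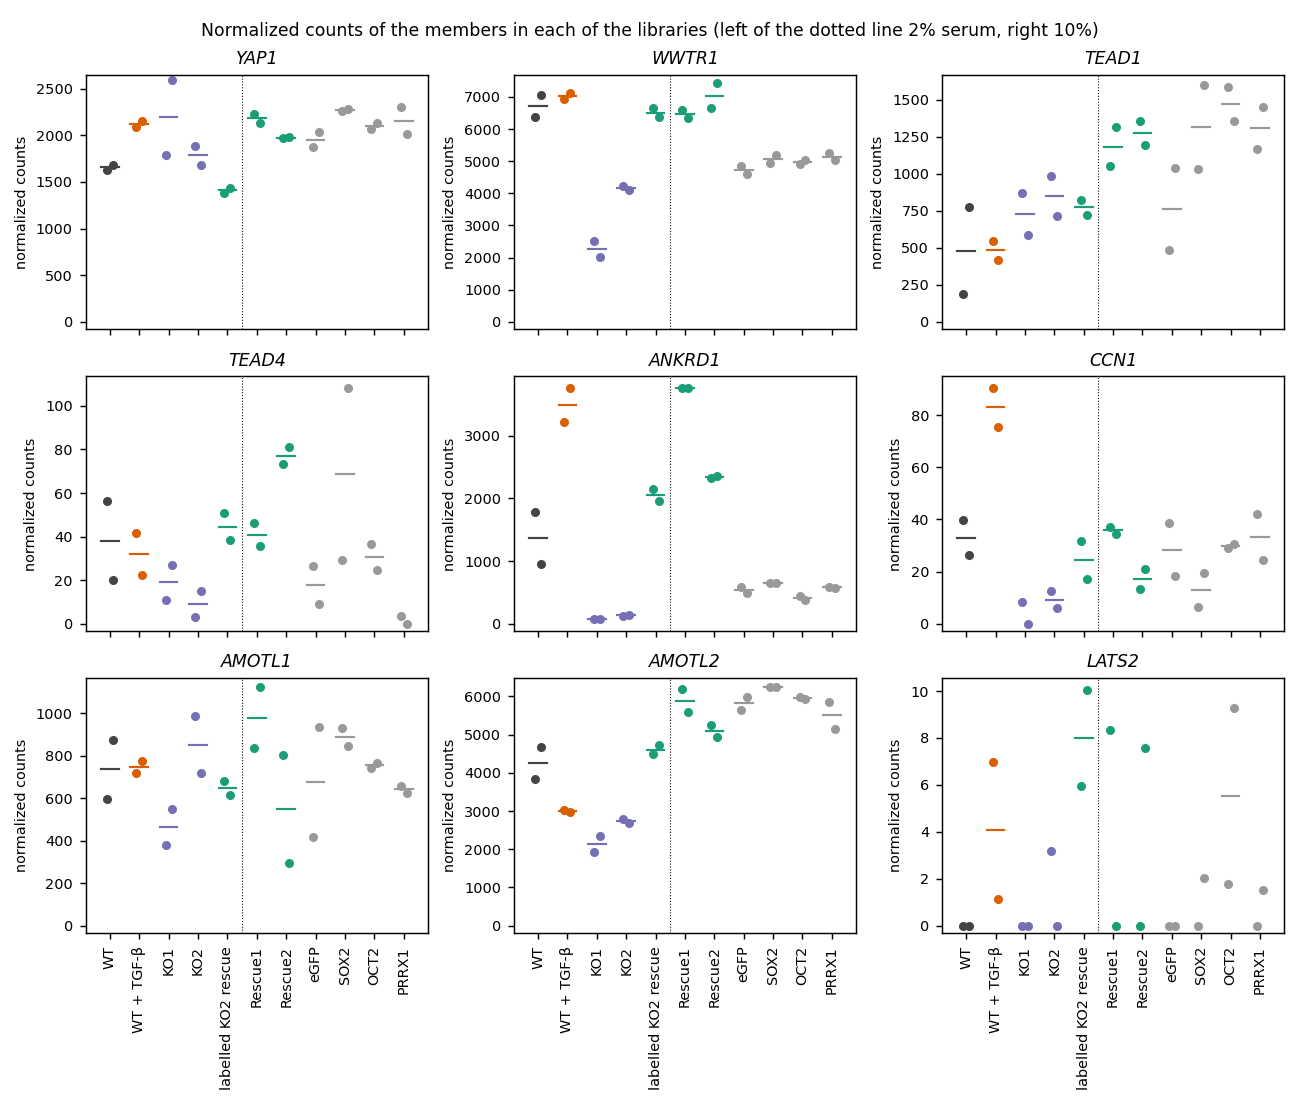
Normalized counts (y axis, linear, a separate scale per gene) of the 9 members in each library, by group on the x axis, with points for the libraries and a line for the mean of groups without a 0. ANKRD1 and WWTR1 are lowest in KO1 and KO2, YAP1 stays between 1383 and 2591, and LATS2 is listed at 0 in 11 libraries.

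TEAD1 and TEAD4, the members among the TEAD factors that bring the coactivators to DNA, gave less certain values. TEAD2, which is not a member, was at 1074 and 884.6 normalized counts in WT, 552.1 and 342.9 in KO1 and 766.2 and 748.2 in KO2. It was called lower in KO1 than in WT and was not called in KO2. TEAD1 was at 185.9 and 772 in WT, a 4.15-fold gap between duplicates. TGF-β-treated cells had 549.1 and 417.5, KO1 cells 869.9 and 587.2, and KO2 cells 981.8 and 716.2, and the level was between 1049 and 1357 in the rescue clones. The 3 lines with ectopic factors were at 1029 to 1598, and the eGFP line at 488.4 and 1037. For TEAD1 the difference of KO1 from WT was 0.91 (SE 0.49, adjusted p = 0.159), and that of KO2 was 1.14 (SE 0.49, adjusted p = 0.1). Both values rest on the WT duplicates: they came to -0.11 and 0.12 when WT replicate 1 was left out, and to 1.94 and 2.17, past both thresholds, when WT replicate 2 was.

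TEAD4 had few counts in the table, with a median of 28.05 normalized counts. It was at 56.15 and 19.9 in WT, 11.07 and 26.97 in KO1, 2.987 and 15.13 in KO2, 46.08 and 35.54 in Rescue1 and 73.15 and 81.26 in Rescue2. The 4 rescue libraries lay above the 4 KO libraries, while KO1 overlapped WT. TEAD4 was higher in rescue than in KO by 2.23 (SE 0.64, adjusted p = 0.01), which fell to 1.72 and missed the threshold without KO2 replicate 1. The change of KO2 from WT was -2.11 (SE 0.90, adjusted p = 0.0983), which became -3.12 and passed without KO2 replicate 2. The rescue effect minus the KO effect was 3.29 (SE 1.10, adjusted p = 0.0311), and this call was lost at values of 2.56 to 3.25 when WT replicate 1, KO1 replicate 1, KO2 replicate 1, Rescue1 replicate 1, Rescue2 replicate 2 or eGFP replicate 2 was left out. With so few counts the size of these TEAD4 differences is poorly known.

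ANKRD1, an ankyrin-repeat protein of the nucleus and the sarcomere and a standard YAP-TEAD target, had the largest change of any member in 9 of the 14 comparisons. It was at 1784 and 949.5 normalized counts in WT, 83.97 and 70.55 in KO1, and 124.3 and 147.4 in KO2. With TGF-β it was at 3220 and 3753. The KO libraries were the 4 lowest and the TGF-β libraries among the highest, with no overlap with WT in either direction. ANKRD1 was 17.7-fold lower in KO1 than in WT (log2 change -4.06, SE 0.21, adjusted p = 9.3e-10) and 10.1-fold lower in KO2 (-3.26, SE 0.21, adjusted p = 2.0e-08). It was 2.55-fold higher with TGF-β (1.42, SE 0.21, adjusted p = 2.4e-04), so that the KO clones lay 32.7-fold below TGF-β-treated cells (-5.08, SE 0.18, adjusted p = 1.4e-11). The TGF-β call rests on WT replicate 2, without which the change was 0.96, and it was not made either in a fit of the WT and TGF-β libraries alone. WT replicate 1, the one nearer to the TGF-β libraries in ANKRD1, was also the one nearer to them in COL1A1, and whether the 2 go together was not tested.

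In the rescue clones and in the cells labelled KO2 rescue, ANKRD1 lay above WT. Rescue1 was at 3759 and 3758, Rescue2 at 2324 and 2361, and the libraries labelled KO2 rescue at 2151 and 1961. The eGFP line was at 588.8 and 495. All 6 of the former lay above both WT and both eGFP libraries. The rescue clones were 28.6-fold above the KO clones (log2 change 4.85, SE 0.15, adjusted p = 2.1e-12) and 5.63-fold above eGFP cells in the same serum (2.46, SE 0.18, adjusted p = 1.3e-07). Rescue1 was 1.6-fold above Rescue2 (0.68, SE 0.21, adjusted p = 0.169). The rescue effect minus the KO effect, each against WT-derived cells in the same serum, was 6.12 (SE 0.26, adjusted p = 1.2e-10). Cells with the KO2 rescue label were 15.1-fold above KO2 (3.91, SE 0.21, adjusted p = 1.5e-08), again without more SETD2 mRNA.

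ANKRD1 also differed between the 2 controls, eGFP and WT cells, which differ in transduction and selection as well as in serum. The eGFP cells were 2.52-fold below WT cells in low serum (log2 change -1.27, SE 0.21, adjusted p = 3.7e-04). This call was lost without WT replicate 1, at -0.81, and in a fit of these 2 groups alone. Among the transduced lines ANKRD1 stayed between 384 and 647.6 normalized counts, under every WT and rescue library. The part of serum in the level of the rescue clones was not tested.

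CCN1 (also called CYR61), a secreted matricellular protein and the other classical readout in the table, had few counts throughout. WT cells had 39.62 and 26.26 normalized counts and TGF-β-treated cells 90.33 and 75.53. In KO1 the 2 libraries were at 8.345 and a listed 0, and in KO2 at 12.4 and 5.896. The 4 KO libraries lay below WT, and the TGF-β libraries above it. CCN1 was lower in KO1 than in WT by the test (log2 change -3.44, SE 0.85, adjusted p = 0.0045), a call that rests on the library listed at 0, since it was -5.06 without KO1 replicate 1 and -1.83, no longer called, without KO1 replicate 2. In fits of only the groups compared, neither this call nor that of rescue against KO below was made. The change was -1.79 in KO2 (SE 0.85, adjusted p = 0.135) and 1.33 with TGF-β (SE 0.85, adjusted p = 0.353). Set against TGF-β-treated cells the KO clones were lower by 3.95 on the log2 scale (SE 0.73, adjusted p = 5.7e-04), between -4.75 and -3.14 without either KO1 library. Rescue1 was at 37.15 and 34.52 and Rescue2 at 13.3 and 20.84, above all KO libraries (2.23, SE 0.60, adjusted p = 0.00676; 3.04 and 1.43 without KO1 replicate 1 and 2). The labelled KO2 rescue libraries, at 31.78 and 17.19, differed from KO2 by 1.34 (SE 0.85, adjusted p = 0.411). The rescue effect minus the KO effect was 2.51 (SE 1.04, adjusted p = 0.0759), and 3.31 with a call without KO1 replicate 1.

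**Figure D2:**
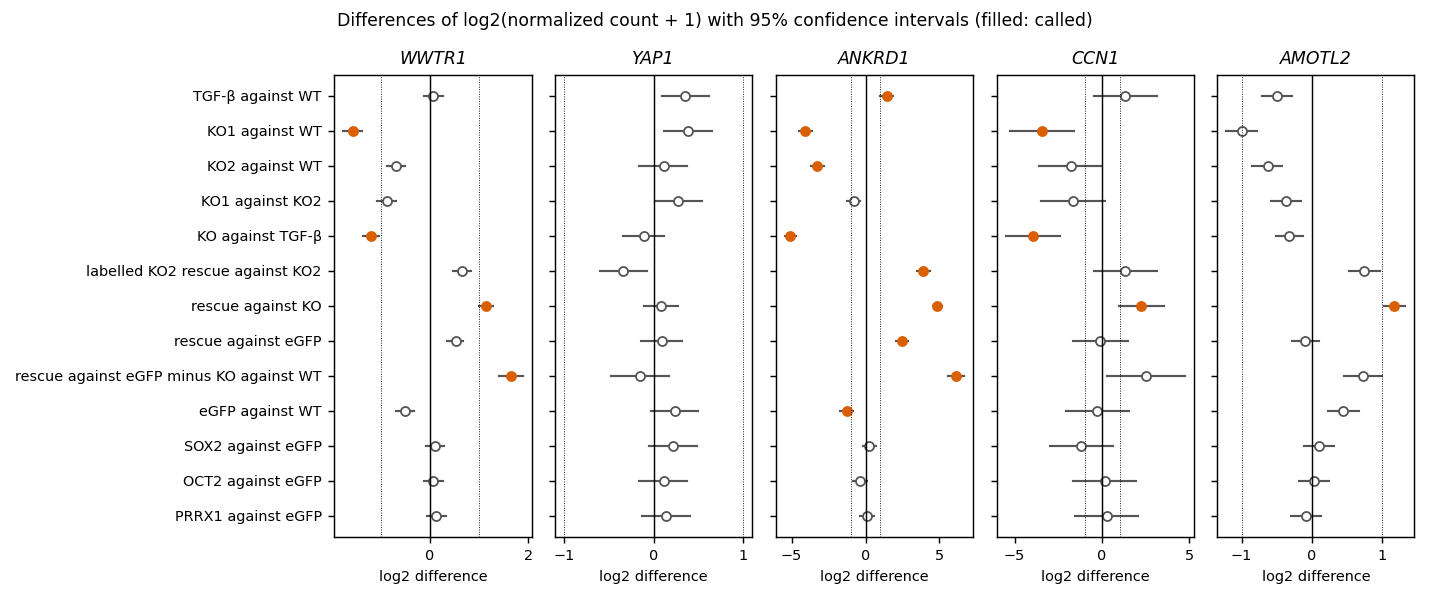
Differences of log2(normalized count + 1) (x axis, a separate scale per gene) of 5 members in 13 comparisons (y axis), with points for the estimates, bars for 95% confidence intervals and dotted lines at the fold required for a call; filled points were called. ANKRD1 is at -4.06 and -3.26 in the KO clones and at 4.85 in rescue against KO, and no YAP1 point is filled.

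The angiomotin-like proteins bind YAP1 and WWTR1 at junctions and actin and hold them out of the nucleus, and AMOTL2 is itself a target. AMOTL2 had 3849 and 4683 normalized counts in WT. TGF-β-treated cells had 3030 and 2986, KO1 cells 1919 and 2349, and KO2 cells 2783 and 2686. All 6 treated or knockout libraries lay below WT. KO1 differed from WT by a log2 change of -1.0 (SE 0.10, adjusted p = 1.6e-06), just short of the fold required, KO2 by -0.63 (SE 0.10, adjusted p = 2.0e-04) and TGF-β-treated cells by -0.50 (SE 0.10, adjusted p = 0.00305). AMOTL2 was thus lower with TGF-β where ANKRD1 was higher. KO1 passed the threshold at -1.14 without WT replicate 1, at -1.15 without KO1 replicate 2, and at -1.13 and -1.41 with quantile normalization and the same-total scaling. The KO clones were below TGF-β-treated cells by 0.32 on the log2 scale (log2 change -0.32, SE 0.09, adjusted p = 0.00997).

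AMOTL2 was at 6183 and 5590 in Rescue1, 5265 and 4931 in Rescue2, and 4486 and 4724 in the libraries labelled KO2 rescue. It was 2.26-fold higher in rescue than in KO (log2 change 1.18, SE 0.07, adjusted p = 4.4e-09) and 1.68-fold higher in the labelled KO2 rescue than in KO2 (0.75, SE 0.10, adjusted p = 1.7e-04). In the eGFP line AMOTL2, at 5647 and 5990, was above WT (0.45, SE 0.10, adjusted p = 0.00373), and the rescue clones overlapped the eGFP line. The rescue effect minus the KO effect was 0.73 (SE 0.12, adjusted p = 3.0e-04), under the fold required.

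AMOTL1 was at 597.8 and 874.4 normalized counts in WT, 378.4 and 550.6 in KO1 and 986.1 and 719.3 in KO2. Its duplicates spread as widely as its groups, for example 805 and 295.8 in Rescue2. KO1 lay below WT by 0.66 on the log2 scale (log2 change -0.66, SE 0.40, adjusted p = 0.212), which did not pass the test but did, at -1.07, under the same-total scaling. LATS2, the kinase that phosphorylates the coactivators, was listed at 0 in 11 libraries, among them both of WT, of KO1 and of eGFP. It was at 6.981 and 1.147 with TGF-β, 3.174 and 0 in KO2, 5.954 and 10.04 in the labelled KO2 rescue, 8.329 and 0 in Rescue1, and 0 and 7.557 in Rescue2. In the SOX2, OCT2 and PRRX1 lines it was between 0 and 9.288. No order of the groups can be read from these values.

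Counted over the 8 tested members, TGF-β called 1 higher (ANKRD1) and 0 lower, where 3.58% of all tested genes were called higher, 4.26% lower and 7.84% in either direction. KO1 against WT called 3 lower (WWTR1, CCN1 and ANKRD1) against 13.1% of all genes lower, 12.0% higher and 25.0% in either direction. KO2 against WT called 1 lower (ANKRD1) against 7.29% lower, 9.02% higher and 16.3% in either direction, a share close to that of all genes. KO against TGF-β called 3 lower (WWTR1, CCN1 and ANKRD1) against 9.83% lower and 20.2% in either direction. Under the same-total scaling the split of all genes moved: TGF-β gave 2.45% higher and 6.41% lower with 1 member higher, KO1 7.96% and 20.6% with 5 members lower, and KO2 7.38% and 10.4% with 1 member lower. These comparisons share their WT libraries, and each is given by its own values.

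Rescue against KO called 5 of the 8 members higher (WWTR1, TEAD4, CCN1, ANKRD1 and AMOTL2) and 0 lower, against 11.3% of all genes higher, 11.9% lower and 23.3% in either direction. That KO mean includes KO1, where WWTR1, ANKRD1 and AMOTL2 were lower than in KO2. Rescue against KO2 alone was not tested, so how many members would be called there is not known. The rescue effect minus the KO effect called 3 higher (WWTR1, TEAD4 and ANKRD1) against 11.8% higher, 12.0% lower and 23.8% in either direction. Rescue against eGFP called 1 higher (ANKRD1), against 6.47% higher and 13.1% in either direction. The labelled KO2 rescue against KO2 also called ANKRD1 alone, against 1.65% higher and 4.17% in either direction. In eGFP against WT, ANKRD1 was the 1 member called lower, against 6.24% lower and 12.7% in either direction. Under the same-total scaling 19.2% of all genes were higher in rescue against KO and 8.03% lower, and 6 members were called higher, and in the difference between the effects 19.2% were higher and 8.01% lower, with 5 members higher. The median change over the 8 members was -0.96 in KO1, -0.66 in KO2, 0.20 with TGF-β and 1.16 in rescue against KO, beside 0.00 over all tested genes in each.

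Between clones of the same kind, limma called 0 members. For KO1 against KO2, 3 members had an adjusted p under 0.05 and 5 an unadjusted p under 0.05, against 6.97% of all genes called. WWTR1 differed by -0.88 (SE 0.09, adjusted p = 9.9e-06), ANKRD1 by -0.81 (SE 0.21, adjusted p = 0.0167) and AMOTL2 by -0.36 (SE 0.10, adjusted p = 0.0238), all lower in KO1. WWTR1 passed the fold threshold at -1.05 without KO1 replicate 1 and at -1.07 under the same-total scaling, which called 1.78% of all genes higher and 6.1% lower here against 2.48% and 4.49% in the main test. For Rescue1 against Rescue2, 2 members had an unadjusted p under 0.05 and 0 an adjusted one, against 0.994% of all genes called.

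**Figure D3:**
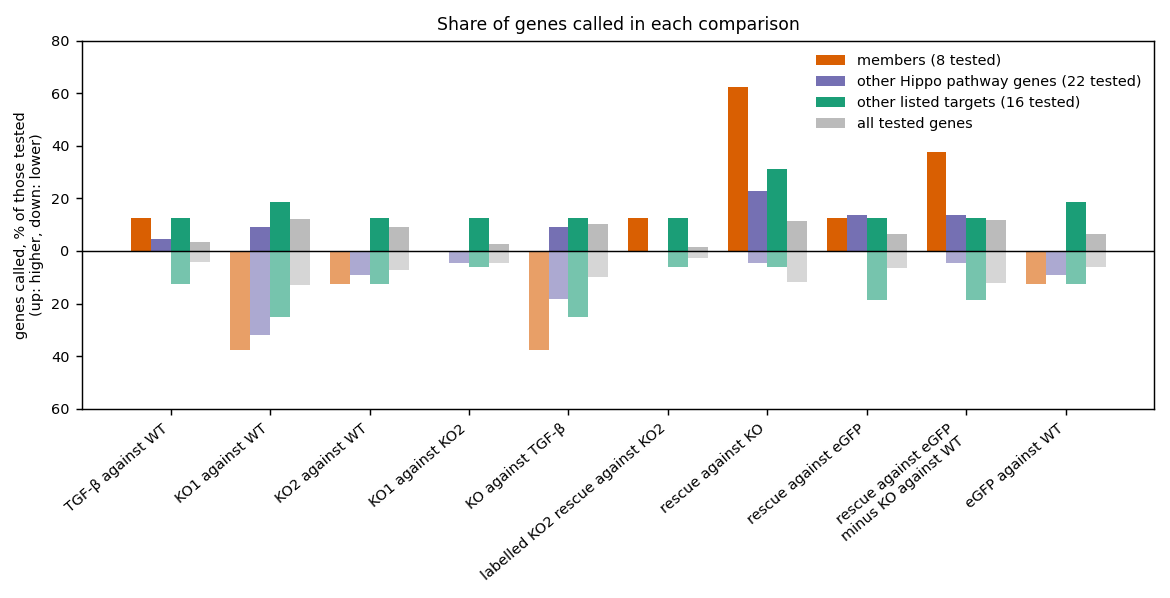
Share of tested genes called (y axis, percent, upward for higher and downward for lower) in 10 comparisons (x axis), with bars for the 8 members, 22 other pathway genes, 16 other listed targets and all tested genes. The tallest bar is that of the members in rescue against KO, with 5 of 8 higher against 11.3% of all genes.

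None of the 3 ectopic factors, SOX2, OCT2 and PRRX1, which are regulators of stem cell and mesenchymal programs, gave a called member. limma called 0 of the 8 members in each line against eGFP, against 0.0206%, 0.0343% and 0.0411% of all genes, so that few genes of any kind were called. At an unadjusted p under 0.05 there were 0 members with SOX2, 0 with OCT2 and 1 with PRRX1. That 1 was TEAD4, at 3.754 and a listed 0 with PRRX1 and at 26.48 and 8.989 with eGFP. WWTR1 stayed between 4588 and 5251 normalized counts in the 8 transduced libraries, and AMOTL2 between 5158 and 6258.

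The other genes of the Hippo pathway, a list of 24 of which 23 had a row and 22 were tested, did not move as 1 block. In KO1 against WT 2 were called higher and 7 lower, which is 40.9% of the list against 25.0% of all genes. In KO2 against WT 0 were higher and 2 lower, 9.09% of the list against 16.3% of all genes, so the share was below the background. WWC1 and WWC2, scaffolds that promote LATS kinase activity, were the 2 lower in KO2, WWC1 by 1.47 on the log2 scale (log2 change -1.47, SE 0.09, adjusted p = 1.2e-08) and WWC2 by -1.06 (SE 0.11, adjusted p = 4.3e-06). WWC1 was also lower in KO1 (-1.84, SE 0.09, adjusted p = 5.1e-10). So was WWC2, called lower there at 1027 and 1326 normalized counts against 2731 and 3085 in WT. LATS1, the sister kinase of LATS2, was lower in KO1 (-3.96, SE 0.79, adjusted p = 9.4e-04), from 28.38 and 75.91 normalized counts in WT to 8.33 and a listed 0. FAT4, a large cadherin upstream of the pathway, was higher in KO1 (1.58, SE 0.51, adjusted p = 0.023), at 116.9 and 587.1 against 82.17 and 91.93. With TGF-β, FRMD6 was the 1 pathway gene called, higher, and 0 were lower, 4.55% of the list against 7.84% of all genes. In a fit of the WT and TGF-β libraries alone 0 genes were called, so this call and those of the targets with TGF-β below were not made there.

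FRMD6 (Willin), a FERM-domain protein that acts upstream of the Hippo kinases, had the 2 WT libraries at 10319 and 5888 normalized counts and the TGF-β libraries at 19829 and 20612 (log2 change 1.37, SE 0.17, adjusted p = 4.3e-05). KO1 was at 2684 and 3102, and KO2 at 4210 and 4169, so KO against TGF-β gave -2.54 (SE 0.14, adjusted p = 2.7e-09). The rescue clones, between 7149 and 7892, exceeded eGFP at 3658 and 3345 (1.11, SE 0.14, adjusted p = 3.8e-05). Like ANKRD1, FRMD6 was high with TGF-β, low in the KO clones and higher in the rescue clones than in both KO and eGFP cells. Its change in KO2 against WT was not called. Unlike ANKRD1, FRMD6 was lower in the eGFP line than in KO2, and the eGFP line differed from WT by -1.16 (SE 0.17, adjusted p = 1.2e-04). In rescue against KO, 5 of the 22 pathway genes were called higher and 1 lower, 27.3% against 23.3% of all genes. LATS1 was higher by 3.50 (SE 0.56, adjusted p = 1.1e-04) and LIMD1, a LATS-binding LIM protein, by 1.49 (SE 0.36, adjusted p = 0.00332), and the cadherin FAT1 was lower (-1.54, SE 0.15, adjusted p = 6.8e-07). In the same serum the rescue clones lay below eGFP in LATS1, at 58.91 to 75.59 against 158.2 and 214. They also did so in LIMD1, at 82.7 to 120.4 against 183.2 and 150.8. Neither LATS1 nor LIMD1 was called in the rescue effect minus the KO effect. In the rescue effect minus the KO effect, NF2 (Merlin), an activator of the Hippo kinases, was higher by 1.47 (SE 0.19, adjusted p = 2.5e-05), and in rescue against eGFP STK3 was higher by 2.33 (SE 0.71, adjusted p = 0.0225). That STK3 difference came mostly from Rescue1, at 390.2 and 335.6 normalized counts. Rescue2, at 52.97 and 35.41, lay close to eGFP at 34.96 and 16.7. AMOT, the founding angiomotin, was the 1 pathway gene called between the KO clones, lower in KO1 (-1.44, SE 0.25, adjusted p = 0.00105), and AJUBA, another LATS-binding LIM protein, was lower in eGFP than in WT (-1.17, SE 0.37, adjusted p = 0.0298).

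Other listed YAP-TEAD targets, 16 of 17 with a row and all 16 tested, moved in both directions. In KO1 against WT 3 were called higher and 4 lower (43.8% against 25.0% of all genes), and in KO2 2 higher and 2 lower (25% against 16.3%). With TGF-β 2 were higher and 2 lower (25% against 7.84%), and in rescue against KO 5 were higher and 1 lower (37.5% against 23.3%). Their median change was -0.02 in KO1, -0.28 in KO2, 0.31 with TGF-β and 0.36 in rescue against KO, beside 0.00 over all genes. GADD45A, a stress-induced inhibitor of growth, was at 76.02 and 41.86 normalized counts in WT, 142.4 and 134.4 with TGF-β and 11.37 and 15.56 in KO1 (log2 change from WT -2.0, SE 0.75, adjusted p = 0.0453). TGFB2, a ligand of the TGF-β family, was lower in the KO clones than with TGF-β (-2.15, SE 0.21, adjusted p = 1.2e-06) and higher in the labelled KO2 rescue than in KO2 (1.59, SE 0.24, adjusted p = 4.7e-04).

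FOXF2 and NT5E differed from WT in the opposite direction to ANKRD1 in both KO clones. FOXF2, a forkhead factor of mesenchyme, was at 4.971 and 9.499 normalized counts in WT, 76.5 and 67.6 in KO1 and 239.8 and 202.3 in KO2, higher by 3.20 (SE 0.37, adjusted p = 5.5e-06) and 4.80 (SE 0.37, adjusted p = 1.3e-07). It stayed high in the rescue clones, at 197.7 to 389.3. NT5E, the ectonucleotidase CD73, was higher in both KO clones, by 1.83 (SE 0.26, adjusted p = 4.4e-05) and 1.25 (SE 0.26, adjusted p = 0.00173). IGFBP3, which binds insulin-like growth factors, was at 27993 and 16517 in WT and 26708 and 26220 in KO1 but between 871.5 and 989.6 in the rescue clones, which was -4.88 from eGFP (SE 0.14, adjusted p = 4.7e-12). It was called lower in KO2 than in WT, and KO1 exceeded KO2 by 1.37 (SE 0.16, adjusted p = 3.7e-05). The labelled KO2 rescue was lower still than KO2 (-2.49, SE 0.16, adjusted p = 8.1e-08), without more SETD2 mRNA. AXL, a receptor tyrosine kinase, was called lower in each of 4 comparisons that share the same WT libraries, which were at 1751 and 4985. KO1 was at 1256 and 1219, and KO2 at 1011 and 891.8. AXL differed by -1.80 with TGF-β (SE 0.37, adjusted p = 0.00323), -1.26 in KO1 (SE 0.37, adjusted p = 0.0142), -1.64 in KO2 (SE 0.37, adjusted p = 0.0035) and -1.85 in the eGFP line (SE 0.37, adjusted p = 0.00171). Whether these calls hold without WT replicate 2 was not tested. In rescue against eGFP, which does not use these WT libraries, AXL was called higher (1.39, SE 0.32, adjusted p = 0.00429). For AXL the rescue effect minus the KO effect was 2.83 (SE 0.45, adjusted p = 1.8e-04). F3, the tissue factor of coagulation, was at 236.7 and 89.01 in WT. It was higher with TGF-β (1.70, SE 0.36, adjusted p = 0.00425), in KO1 (1.81, SE 0.36, adjusted p = 0.00103) and in the eGFP line (2.42, SE 0.36, adjusted p = 1.7e-04). F3 was called lower in rescue against eGFP, and its rescue effect minus the KO effect was -2.37 (SE 0.45, adjusted p = 7.1e-04). CCDC80, a matrix protein, was lower with TGF-β (-1.39, SE 0.12, adjusted p = 1.4e-06).

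Across the 11 group means, ANKRD1 and WWTR1 had a Pearson r of 0.914 on the log2 scale. WWTR1 was the 40th gene of all tested in likeness to ANKRD1. The 3 nearest to ANKRD1 were RSU1 (r = 0.985), ACTN4 (0.963) and SEPTIN8 (0.961), which encode a focal adhesion protein, an actin crosslinker and a septin. CCN1 had an r of 0.778 with ANKRD1 and of 0.827 with WWTR1, and its nearest genes were VN1R1 (0.955), ZDHHC17 (0.932) and DPY19L2P1 (0.926). YAP1 had an r of -0.144 with ANKRD1 and of -0.066 with CCN1. The groups share cell line, serum and clones, so these values over 11 points are descriptions. ANKRD1 fell in the order Rescue1, TGF-β, Rescue2, labelled KO2 rescue, WT, SOX2, PRRX1, eGFP, OCT2, KO2 and KO1, in which the replicates of neighbours overlapped only between PRRX1 and eGFP. In the order of WWTR1, from Rescue2 down through TGF-β, WT and the labelled KO2 rescue to Rescue1, each neighbour overlapped the next. The 4 transduced lines came after these, and KO2 and KO1 were last with no overlap with any other group or each other.

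**Figure D4:**
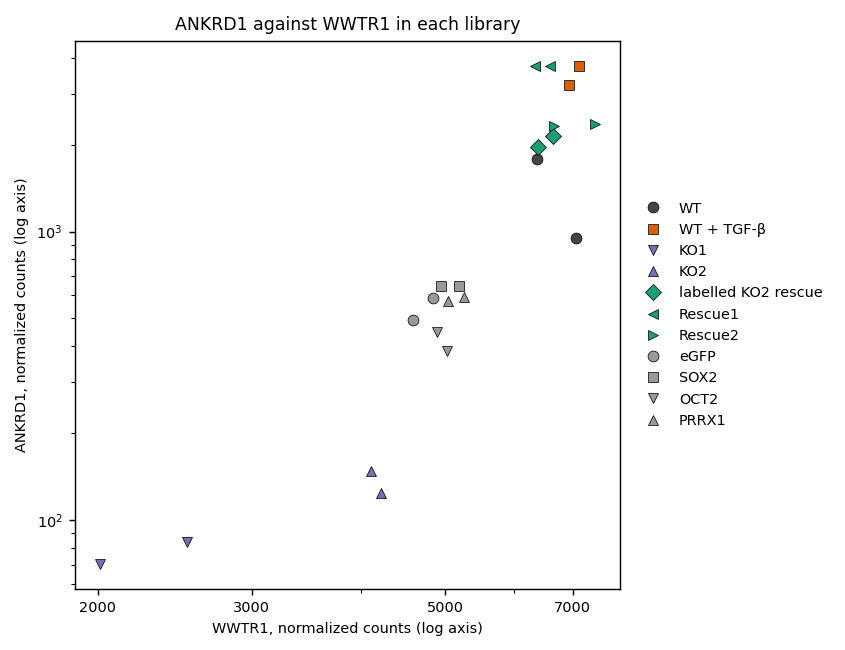
ANKRD1 (y axis) against WWTR1 (x axis) in normalized counts, both axes logarithmic, with a point for each of the 22 libraries and a symbol for each group. The 4 KO libraries lie at the lower left, at 70.55 to 147.4 of ANKRD1, the transduced WT lines in the middle, and the rescue, TGF-β and WT libraries at the right.

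Markers of cell identity also differed between groups, with genes of the same list moving in different directions. Of 7 renal epithelial markers the summed level was 21887 to 24098 in WT, 11342 to 11984 in KO1, 16343 to 17294 in KO2, 16769 to 17765 in the eGFP line and 28009 to 30104 in the rescue clones. The members did not move together. KRT8, a keratin and the largest part of this sum in WT, was at 15741 and 16325 in WT, 4558 and 3952 in KO1, 10534 and 9784 in KO2 and between 22164 and 25190 in the rescue clones. PAX8, a renal transcription factor, was above WT (2322 and 3743) in KO1 (6382 and 6561) and KO2 (5056 and 5096). It was also above WT in the rescue clones, at 3953 to 4592, and in the eGFP line, at 5715 and 6013. EPCAM, an epithelial adhesion molecule, was at 3050 and 2764 in WT, 218 to 900.9 in the KO clones and 438.1 to 690.9 in the rescue clones. CDH1 was listed at 0 in both KO1 libraries and both Rescue1 libraries. Of 6 fibroblast markers the sum was 839.2 to 12443 in WT, 46265 to 47728 with TGF-β, 223361 to 236417 in KO1, 100012 to 103615 in KO2 and 807.7 to 1513 in the rescue clones, with COL3A1 listed at 0 in KO1 and in the rescue clones. Most of this sum in the KO clones was DCN (decorin), a secreted proteoglycan of the matrix, at 234809 and 221606 in KO1 and 98373 and 94978 in KO2 against 477.5 and 289.2 in WT. With TGF-β most of it was COL1A1, which in KO1, at 1042 and 814.6, and KO2, at 3751 and 3520, lay between the 2 WT libraries. THY1 was at 14.31 and 15 in WT, 203.2 and 138.1 in KO1, 1136 and 1135 in KO2 and 1725 and 1895 in the eGFP line. In the libraries labelled KO2 rescue the fibroblast sum was 39131 to 41487, below KO2 and above WT. Of 7 proximal tubule markers the sum was 286.8 to 1672 over all groups, and LRP2 was listed at 0 in both libraries of every group except KO2. The sum of 4 endothelial markers was 4.989 to 40.26 in WT and 125.6 to 154.5 in the KO clones. Most of it there was KDR, a VEGF receptor, at 123.3 and 102.7 in KO1 and 145.3 and 126.2 in KO2 against 0.7704 and a listed 0 in WT, while CDH5 was listed at 0 in both KO clones. The sum of 4 leukocyte markers was 105.6 to 147.4 in WT, 147.4 to 368.1 in the KO clones and 0 to 56.87 in the rescue clones. Most of it in WT and KO was CD68, a lysosomal protein, at 147.4 and 105.6 in WT, 364.1 and 210.2 in KO1 and 189.9 and 144.9 in KO2, and CD3E and LST1 were listed at 0 in these groups. Whether a change in cell state or cell composition takes part in the changes of ANKRD1 and WWTR1 was not tested.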

How the data were processed

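RNA of 22 RPTEC libraries was prepared with the TruSeq Stranded mRNA kit and sequenced as 150 bp paired-end reads, per the study's methods. The authors quantified transcripts with Salmon against the Ensembl release 94 cDNA of GRCh38 and ran DESeq2 1.26.0 (the submitters' processing notes list Salmon 1.9.0), and deposited log2 values for 36859 genes. That these log2 values are variance-stabilized normalized counts was read from the table, in which all libraries share the lowest value 11.32, and they were converted back by inverting the transformation. Values below 4.5 steps of the spacing per library fell within 0.1 step of a whole multiple in 35.7 to 56.0% of cases, so reads could not be recovered, no count model was run, and precision at low counts is limited by counting error.

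Groups were taken from the labels. limma 3.58.1 (R 4.3.3) was fitted with a variance trend to log2(normalized count + 1) of all 22 libraries, with 11 group means and no covariate, for 14585 genes that reached 10 normalized counts in 2 or more libraries. The p-values were adjusted by Benjamini-Hochberg over all tested genes of a comparison, and intervals are at 95%. The fit was tested on simulated data. Symbols came from GENCODE release 44. The alternatives tried were other pseudocounts (0.5 and 5), testing every gene with a value above 0 or only genes with a mean over libraries of 50 or more, quantile normalization, equal library totals, fits of only the groups compared, a replicate block, the deposited log2 scale and leaving out each library.

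The members and the lists were chosen with earlier results of these data known. All members are described, and of the other lists at most 3 genes per comparison and list, those with the largest change among genes called whose groups did not overlap. Some genes named in this way are also given in other comparisons, such as AXL and F3 in KO1 against WT, and TEAD2 is given besides these. For CCN1 and ANKRD1 the 3 genes of highest correlation over group means are named. Same-numbered libraries did not deviate together: over 55 pairs of groups the correlation of their deviations was -0.143 to 0.095, so the numbers were not taken as pairs.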

Additional observations from a re-analysis of the deposited data

Results flagged for a closer look

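KO1 and KO2 differed from each other in 3 members, by limma's test of KO1 against KO2. WWTR1 was lower in KO1 than in KO2 by a log2 difference of -0.88 (adjusted p = 9.9e-06), with 2528 and 2011 normalized counts against 4216 and 4107. ANKRD1 differed by -0.81 (adjusted p = 0.0167), with 83.97 and 70.55 against 124.3 and 147.4. AMOTL2 differed by -0.36 (adjusted p = 0.0238), with 1919 and 2349 against 2783 and 2686. Each clone is a single isolate, so the clone and the allele it carries cannot be told apart.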

How the results depend on the processing

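Of the 47 member changes given in the report, each kept its direction and its side of the threshold with pseudocounts of 0.5 and 5, without the filter and with the replicate block, and the 37 with a value did so at a mean of at least 50. Same-numbered libraries share only a number: the replicate block gave 1116 genes called for TGF-β against WT beside 1143 without it, 3643 beside 3653 for KO1, 2356 beside 2378 for KO2 and 3402 beside 3392 for rescue against KO, and changed no count of members. Since the WT and TGF-β duplicates deviated in opposite directions (-0.143), a crossed pairing was added after seeing the data, and in a fit of those 4 libraries the crossed and the numbered block each called 0 genes and 0 members.

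On the deposited log2 scale, which compresses low values, 16 member changes fell under the fold required with their direction kept, and genes called came to 31 for TGF-β against WT, 178 for KO1 and 94 for KO2 against WT, 23 for KO1 against KO2, 134 for KO against TGF-β, 35 for the labelled KO2 rescue against KO2, 35 for rescue against eGFP, 1 for Rescue1 against Rescue2, 96 for rescue against KO, 206 for the difference between effects, 36 for eGFP against WT and 0 for SOX2, OCT2 and PRRX1. Members called came to 0 for TGF-β, KO1 and KO2 against WT, the labelled KO2 rescue, rescue against eGFP and eGFP against WT, and to 1 for KO against TGF-β, rescue against KO and the difference between effects. In fits of only the groups compared, genes called were 0 with TGF-β, 1912 in KO1, 1 between the KO clones, 1 between the rescue clones, 715 for eGFP against WT and 0 for SOX2, OCT2 and PRRX1, with 0 members for TGF-β and eGFP against WT.

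With equal library totals, members called were 5 in KO1 against WT, 1 between the KO clones and 5 in the difference between effects, and 6 genes were called for SOX2. Signs turned for WWTR1 with TGF-β (-0.17) and for YAP1 in KO1 (-0.03) and KO2 (-0.12). A mean of at least 50 left 1942 genes in KO against TGF-β, 2147 in rescue against KO with 3 members, and 3 each for OCT2 and PRRX1. No filter gave 16, 14 and 18 genes for SOX2, OCT2 and PRRX1, a pseudocount of 0.5 gave 7 for SOX2, and one of 5 gave 3 for OCT2.

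Leaving out 1 library at a time, genes called ranged from 642 to 1745 between the KO clones, 739 to 1308 with TGF-β, 7 to 36 with SOX2, 3 to 37 with OCT2 and 7 to 41 with PRRX1. Members called ranged from 0 to 2 between the KO clones, 1 to 2 in KO2 and 0 to 2 for eGFP against WT. The change ranged from -0.01 to 0.14 for WWTR1 with TGF-β, -0.11 to 1.94 for TEAD1 in KO1, and -0.05 to 0.22 for YAP1 in rescue against KO. The cause was not tested for any of these.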
